A study of Mus musculus with 4 samples.

Results

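The colony-stimulating factor axis of microglia was followed through 6 genes: the receptor genes Csf1r, Csf2ra, Csf2rb and Csf3r, and the ligand genes Csf1 and Il34. They were taken by gene name from a table of 21044 genes, in which 5 of the 6 had a row, and Il34 is not analysed here. RNA came from microglia of the corpus callosum, the large white matter tract between the hemispheres, isolated from mice at postnatal day 7. The 2 cKO libraries are from Lag3cKO-Cx3 mice, in which the floxed gene of the inhibitory receptor LAG3 is conditionally deleted, Cx3 being read here as a Cx3cr1 driver, and the 2 WT libraries are from Lag3fl/fl mice, which carry the same floxed alleles and have the genotype label wt. The Cx3cr1 driver is also active in macrophages outside the parenchyma, and the labels say neither whether WT mice carry it nor how many animals a library pools. P-values therefore measure only the spread between these libraries, which may be technical. The question put by the design is which genes differ in these microglia when Lag3 is lost.

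CSF1R is a receptor tyrosine kinase that binds CSF1 and IL-34, and microglia need its signal to survive. In the mouse brain CSF1 is the ligand known for white matter and IL-34 the one known for forebrain grey matter. The GM-CSF receptor pairs the alpha chain encoded by Csf2ra with the common beta chain encoded by Csf2rb, which also serves IL-3 and IL-5, and Csf3r encodes the receptor of G-CSF, best known from neutrophils. PU.1, the product of Spi1, is a myeloid transcription factor known to act at the promoters of CSF receptor genes through purine-rich sites.

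The bases before the RefSeq start are shown for Csf2ra and Csf3r, a pair of receptor genes, and for Csf1, a ligand gene. These windows hold or lack GAGGAAG, a purine-rich word chosen here. A window without it can still hold other purine-rich stretches. Each line gives 250 bases before the RefSeq start on the gene's own strand, 5′ to 3′ (RefSeq, GRCm38.p6), with each match to GAGGAAG, or to CTTCCTC on the opposite strand, in capitals. Csf2ra lies at chr19:61228419-61228668 on the minus strand, Csf3r at chr4:126024409-126024658 on the plus strand and Csf1 at chr3:107760470-107760719 on the minus strand.
Csf2ra: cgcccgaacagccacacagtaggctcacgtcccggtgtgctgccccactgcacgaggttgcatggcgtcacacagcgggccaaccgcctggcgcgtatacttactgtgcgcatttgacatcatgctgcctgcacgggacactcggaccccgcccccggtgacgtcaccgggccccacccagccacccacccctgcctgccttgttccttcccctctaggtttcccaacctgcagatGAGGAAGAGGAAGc
Csf3r: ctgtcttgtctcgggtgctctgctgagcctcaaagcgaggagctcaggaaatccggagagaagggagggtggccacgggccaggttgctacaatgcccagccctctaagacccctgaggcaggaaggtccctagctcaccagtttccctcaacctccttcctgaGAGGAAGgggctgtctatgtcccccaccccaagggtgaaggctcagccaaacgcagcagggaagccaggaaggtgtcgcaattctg
Csf1: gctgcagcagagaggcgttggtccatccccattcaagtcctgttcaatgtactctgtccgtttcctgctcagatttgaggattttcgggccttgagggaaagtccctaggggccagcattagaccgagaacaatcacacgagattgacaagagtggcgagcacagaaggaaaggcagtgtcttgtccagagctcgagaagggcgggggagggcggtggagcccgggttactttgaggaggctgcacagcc
Csf2ra holds 2 matches that overlap by 1 base, beginning 14 and 8 bases before the start, and Csf3r holds 1 that begins 86 bases before it. Csf1 holds none in this window. The letters occur on either strand in 10.6% of 32851 promoter windows of this length. By the files' positions the Csf3r gene begins upstream of its RefSeq start, at 126024550, so that part of its window and the marked match lie inside the gene. A match is a description of the letters and not a site. Among windows not printed, that of the receptor gene Il3ra held 0 matches and that of the receptor gene Csf2rb2 held 1 on the opposite strand. The promoters of Csf1r and Csf2rb are not shown.

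Total counts were 16770162 and 14645187 in the cKO libraries and 15855913 and 14973059 in the WT libraries. Lag3 had 595 and 257 counts in cKO, against 6064 and 10007 in WT, and Cx3cr1, the fractalkine receptor gene and locus of the driver, had 57168 and 45500 counts in cKO, against 101021 and 96016 in WT. The second cKO library stood apart, with 12787 genes holding a count, against 15491 in cKO 1 and 14840 and 15899 in WT, and with a correlation of log2 CPM (counts scaled to a fixed library total) across genes of 0.801 to 0.821 with the other libraries, against 0.91 to 0.943 among those 3. It also had no count of the Y-linked gene Ddx3y, against 1795 in cKO 1 and 1485 and 1306 in WT, and 4355 counts of Xist, against 117 in cKO 1 and 0 in both WT libraries. Sex and genotype can therefore not be fully told apart. All 12 microglial markers, among them Tmem119, P2ry12 and Sall1, had counts in all 4 libraries, with summed levels of 20110 and 20050 CPM in cKO and 16560 and 18570 CPM in WT.

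**Figure D1:**
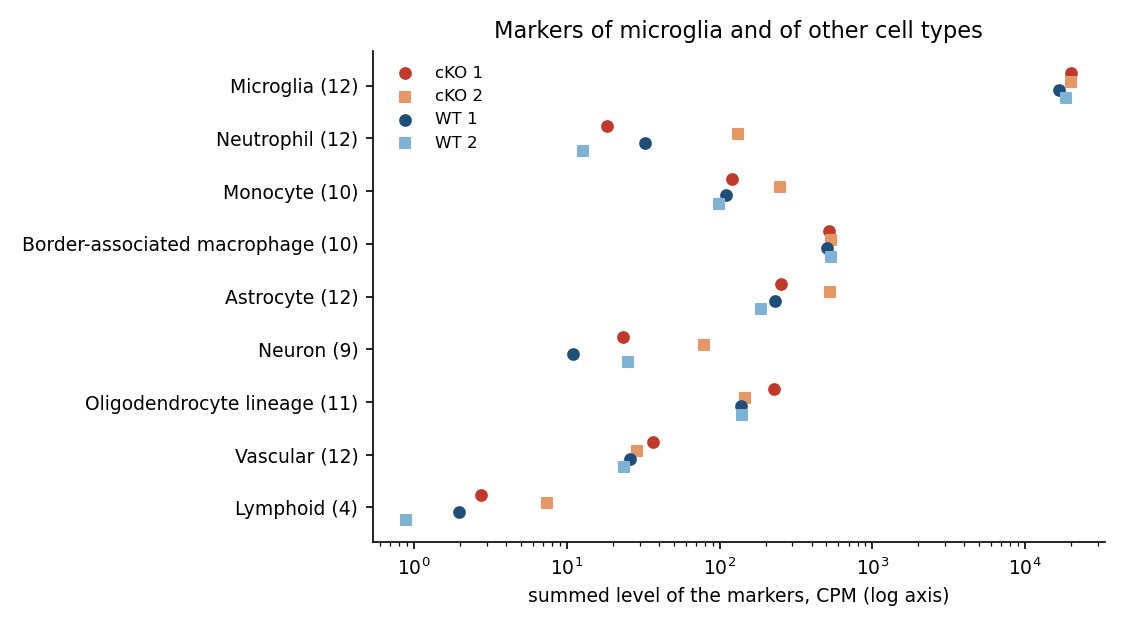
Summed level of marker genes per library in CPM on a log axis, for microglia and 8 other cell types (genes with counts in parentheses). The microglial sums of cKO 1 and 2 (20110 and 20050 CPM) and WT 1 and 2 (16560 and 18570 CPM) lie above all others. The cKO 2 library has the highest sums for neutrophil, monocyte, border-associated macrophage, astrocyte, neuron and lymphoid markers. For border-associated macrophages its sum (538.0 CPM) is close to that of WT 2 (536.3 CPM), and Mrc1 makes up most of both.

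Csf1r (ENSMUSG00000024621, chromosome 18, 61105572 to 61132149 on the plus strand, in the files' positions, which follow GRCm38) was among the most abundant transcripts of the isolates, and its level was close between the groups. Per gene length it had 1844 and 1557 FPKM (fragments per kilobase of gene, scaled to the library) in cKO 1 and 2 and 1580 and 1808 FPKM in WT 1 and 2. It ranked 22 and 23 by FPKM among the 21044 genes of the cKO libraries and 23 in each WT library. Its counts were 151073 and 111404 in cKO and 122358 and 132244 in WT. The groups overlapped, cKO 1 and WT 2 being the high libraries and cKO 2 and WT 1 the low ones. The highest FPKM was 1.18 times the lowest, and the log2 fold change of cKO over WT was -0.035 ± 0.158 (SE, edgeR's quasi-likelihood test, adjusted p = 0.9997). The gene shares exon bases with Hmgxb3 on the opposite strand, whose own counts were 633 and 528 in cKO and 562 and 461 in WT.

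Csf1 (ENSMUSG00000014599, chromosome 3, 107741048 to 107760469 on the minus strand), the ligand gene, was the only member of the 5 for which both cKO values lay on 1 side of both WT values. Its counts were 8646 and 4581 in cKO, against 9979 and 8574 in WT. Per length the levels were 97.6 and 59.2 FPKM in cKO and 119.2 and 108.4 FPKM in WT. Both cKO libraries were low, cKO 2 far more than cKO 1. Scaled by TMM, the mean level was 410.2 ± 148.1 CPM in cKO and 610.8 ± 36.2 CPM in WT (SD, n = 2 each), a log2 fold change of -0.575 (SE 0.286). It did not pass edgeR's quasi-likelihood test (p = 0.104, adjusted p = 0.9997) or DESeq2 (p = 0.0545, adjusted p = 0.886), and with 2 libraries against 2 an exact two-sided permutation test cannot go below p = 0.333.

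The difference in Csf1 depended on which cKO library was kept. Without cKO 2 its log2 fold change was -0.25 ± 0.133 (SE, edgeR adjusted p = 0.632). Without cKO 1 it was -1.0 ± 0.141 (SE) and passed edgeR (adjusted p = 0.0392), in a fit that assumes the lone cKO library to vary like the WT libraries and that called 748 of 13086 genes, or 5.72%, and 4.91% as lower in cKO. In the single-library differences of log2 CPM, cKO 1 minus WT 1 and WT 2 gave -0.305 and -0.185, cKO 2 minus WT 1 and WT 2 gave -1.06 and -0.937, and WT 2 minus WT 1 gave -0.121. The gap between the cKO libraries, at -0.752 for cKO 2 minus cKO 1, was thus wider than either gap between cKO 1 and a WT library.

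Other cells of the tract also express Csf1. Of the 12 astrocyte markers, all had counts, with sums of 252.3 and 528.7 CPM in cKO and 230.4 and 185.5 CPM in WT. All 10 that were tested were fitted higher and 6 lay above WT in each cKO library, where 15.8% of all genes did, with 0 passing edgeR. Untested for low counts, Gjb6 had 0 counts in both cKO libraries and 2 and 6 in WT, and S100b had 1 and 0 counts in cKO and 9 and 11 in WT. For the oligodendrocyte lineage, 11 of 12 markers had counts, with sums of 227.4 and 147.5 CPM in cKO and 138.3 and 141.0 CPM in WT. Vascular markers, 12 of 12 with counts, summed to 36.4 and 28.7 CPM in cKO and 26.02 and 23.82 CPM in WT, and 9 of 12 neuron markers to 23.4 and 79.2 CPM in cKO and 11.03 and 25.05 CPM in WT. Their part in the Csf1 level was not tested. In these bulk samples fewer cells of a type and less RNA per cell cannot be told apart.

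**Figure D2:**
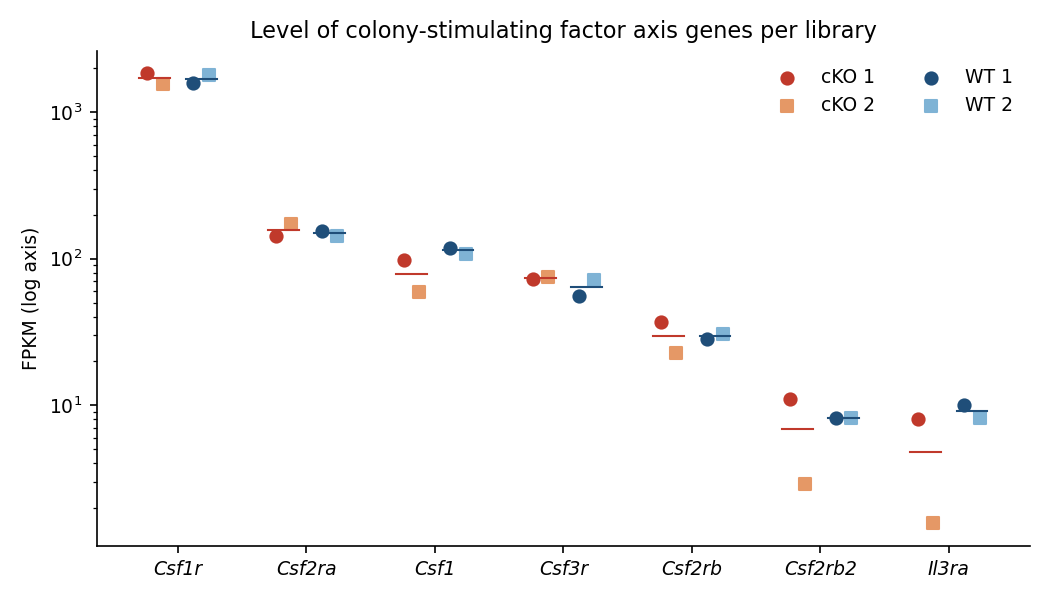
FPKM of the 5 members, of Csf2rb2 and of Il3ra in each library on a log axis, with cKO left of WT for each gene. Points are libraries and short lines are group means (n = 2 each). Csf1r sits between 1557 and 1844 FPKM in all libraries, and Csf1 is at 97.6 and 59.2 FPKM in cKO, below 119.2 and 108.4 FPKM in WT.

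The GM-CSF receptor genes lay near WT on average, with the cKO libraries on either side. Csf2ra (ENSMUSG00000059326, chromosome 19, 61224402 to 61228418 on the minus strand) had 142.7 and 173.2 FPKM in cKO and 154.8 and 143.0 FPKM in WT, from 4424 and 4691 counts in cKO and 4540 and 3960 in WT. The cKO libraries were the lowest and the highest of the 4, and the log2 fold change was 0.042 ± 0.175 (SE, edgeR adjusted p = 0.9997). Csf2rb (ENSMUSG00000071713, chromosome 15, 78325990 to 78351000 on the plus strand) had 37.0 and 22.7 FPKM in cKO and 28.5 and 30.8 FPKM in WT, from 2955 and 1584 counts in cKO and 2151 and 2199 in WT. Again the cKO libraries lay above and below both WT libraries, in the opposite order to Csf2ra. The log2 fold change of Csf2rb was -0.029 ± 0.301 (SE, edgeR adjusted p = 0.9997), and it was -0.44 without cKO 1 and 0.29 without cKO 2. Within a library the alpha chain exceeded the beta chain by 3.86 and 7.63 times in FPKM in cKO 1 and cKO 2, and by 5.44 and 4.64 times in WT 1 and WT 2. Csf2rb shares exon bases with Mir7676-2 on the same strand and has a near-identical copy, described next. These ratios are not corrected for shared reads.

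Mice have a second beta chain gene, Csf2rb2, which serves IL-3 alone and lies beside Csf2rb on chromosome 15 at 78282517 to 78305603 on the minus strand. The pair is near-identical, so that reads can be assigned to either copy or discarded as ambiguous. Over 2631 aligned coding bases (GENCODE M21) 95.2% were identical, the longest run without a difference was 242 bases, and 18.4% of the 50-base words of the Csf2rb transcript occurred in that of Csf2rb2. The sources used here give no read length. The 60 coding bases in which the pair differs most are shown because they mark where reads can be told apart, with the 13 differing bases in capitals, at coding bases 304 to 363 of Csf2rb and 307 to 366 of Csf2rb2.
Csf2rb: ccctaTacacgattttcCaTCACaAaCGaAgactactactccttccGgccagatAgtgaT
Csf2rb2: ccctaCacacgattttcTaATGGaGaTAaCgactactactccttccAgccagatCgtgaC
Csf2rb2 had 848 and 195 counts in cKO and 601 and 565 in WT. The WT libraries were close to each other, cKO 1 was the highest and cKO 2 the lowest by far. Its count over that of Csf2rb was 0.287 and 0.123 in cKO 1 and 2, against 0.279 and 0.257 in WT 1 and 2. Summed, the pair had 226.5 and 118.6 CPM in cKO and 175.5 and 188.7 CPM in WT, so the groups also overlapped for the sum of the copies.

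Il3ra, the alpha chain of the IL-3 receptor on chromosome 14, had 402 and 68 counts in cKO and 470 and 364 in WT. Its level was 23.9 and 4.53 CPM in cKO and 30.0 and 24.8 CPM in WT, so cKO 1 lay just under the lower WT library and cKO 2 far below all others. The log2 fold change was -0.944 ± 0.840 (SE, edgeR adjusted p = 0.9997), and -0.195 without cKO 2. Of the 7 tested partners of the axis, Csf2rb2 and Il3ra among them, 3 were fitted higher and 4 lower, 0 passed edgeR, and the median of the log2 fold changes was -0.276. The ligand genes Csf2, Csf3, Il3 and Il5 are not analysed here, and Il5ra had no counts to test.

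**Figure D3:**
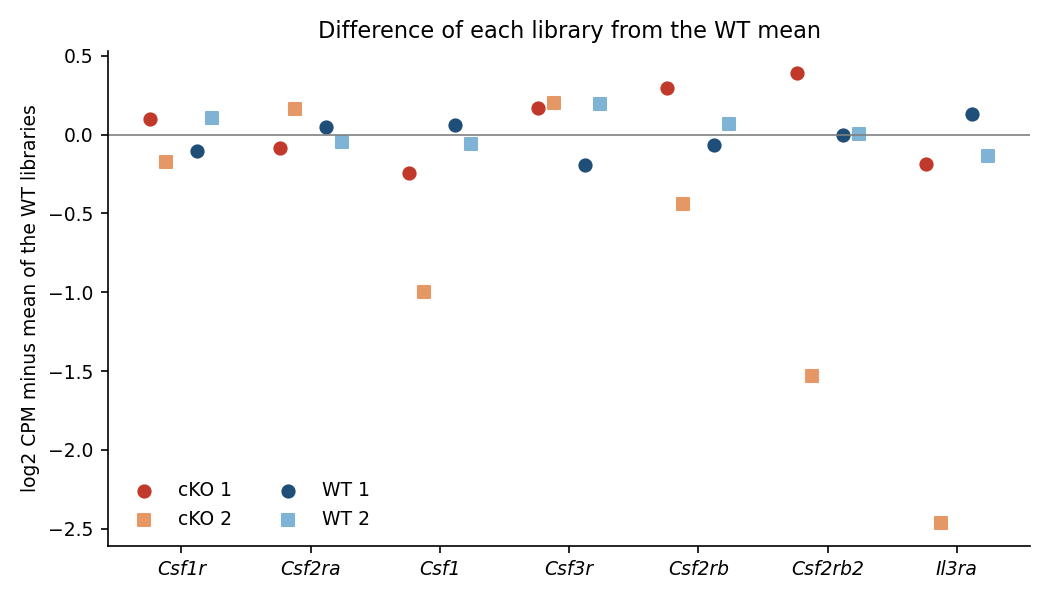
Difference of each library from the mean of the WT libraries in log2 CPM, for the 5 members, Csf2rb2 and Il3ra, with cKO left of WT for each gene. In cKO 2 Csf1, Csf2rb, Csf2rb2 and Il3ra lie below both WT libraries, whereas in cKO 1 Csf2rb and Csf2rb2 lie above them.

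Csf3r (ENSMUSG00000028859, chromosome 4, 126024550 to 126044440 on the plus strand) had 72.2 and 75.4 FPKM in cKO and 55.5 and 71.8 FPKM in WT. Its counts were 4369 and 3986 in cKO and 3179 and 3881 in WT. WT 1 was the low library, and the other 3 lay close together. Scaled by TMM, the cKO mean was 263.0 ± 3.94 CPM and the WT mean 233.8 ± 43.9 CPM (SD, n = 2 each), and the log2 fold change was 0.170 ± 0.200 (SE, edgeR adjusted p = 0.9997). It was -0.020 without WT 1 and 0.37 without WT 2.

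Neutrophils are the cells in which the G-CSF receptor is best known. Of the 13 neutrophil markers, 12 had counts, with sums of 18.3 and 131.5 CPM in cKO and 32.6 and 12.7 CPM in WT. Mpo and Elane were at 0 in both cKO libraries and in WT 2, with 129 and 115 counts in WT 1. Mmp8 was at 0 in both cKO libraries and had 100 and 76 counts in WT. Ly6g was at 0 in all libraries except cKO 2, where it had 97 counts. Other neutrophil markers were higher in cKO 2: Ngp had 37 and 626 counts in cKO and 0 and 5 in WT, Ltf 0 and 632 in cKO and 2 and 18 in WT, and Camp 2 and 106 in cKO and 0 and 2 in WT. Cxcr2 had 175 and 252 counts in cKO and 37 and 42 in WT. Of the 6 tested, 5 were fitted higher and 1 lower, with a median of 1.88 on the log2 scale, and edgeR called 0 and DESeq2 called 2. Between cKO 2 and cKO 1 the log2 CPM of Csf3r differed by 0.031, with those sums differing as given; their part in the Csf3r level was not tested. Monocyte markers summed to 120.1 and 247.3 CPM in cKO and 110.9 and 98.9 CPM in WT.

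By FPKM the members stood in the order Csf1r, Csf2ra, Csf1, Csf3r and Csf2rb in group means, in WT and in cKO alike. Csf1r and Csf2ra were separated in all 4 libraries, as were Csf2ra and Csf1, the lowest Csf2ra value being 142.7 FPKM and the highest Csf1 value 119.2 FPKM. Csf1 and Csf3r did not differ beyond their spread over the 4 libraries. In WT Csf1 was the higher of this pair in both libraries, and in cKO 2 Csf3r was, at 75.4 FPKM beside 59.2 FPKM. Csf3r and Csf2rb were separated in all libraries, at no less than 55.5 and no more than 37.0 FPKM. The place of Csf2rb is not corrected for reads that it shares with Csf2rb2. The ratio of receptor to ligand transcript, Csf1r over Csf1 in FPKM, was 18.9 and 26.3 in cKO and 13.3 and 16.7 in WT. Both cKO libraries thus lay above both WT libraries, as Csf1 alone lay below them. Csf3r over Csf1 separated in the same way, at 0.739 and 1.27 in cKO and 0.466 and 0.662 in WT. The ratios of Csf1r over Csf2ra and over Csf2rb overlapped between the groups. No share over other pairs of genes was computed.

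Across all genes, 0 of the 5 members passed edgeR's test at an adjusted p under 0.05, where 0 of 13086 genes (0.0%) did. The deleted gene Lag3 was itself not called by edgeR, with a log2 fold change of -4.345 and an adjusted p of 0.9997, whereas DESeq2 gave it an adjusted p of 1.035e-19, so a count of 0 by edgeR does not show that genes did not differ. In addition 0 of the 5 had an unadjusted p under 0.05 by edgeR, where 608 genes (4.65%) did, or by DESeq2, where 720 genes (5.5%) did. DESeq2 called 0 of the 5 and 39 of 12578 genes (0.31%) at an adjusted p under 0.05. Groups that did not overlap were found for 1 of the 5 members, Csf1, a separation seen for 35.9% of genes tested, 15.8% above and 20.0% below. The share of members is thus not above that of all genes.

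**Figure D4:**
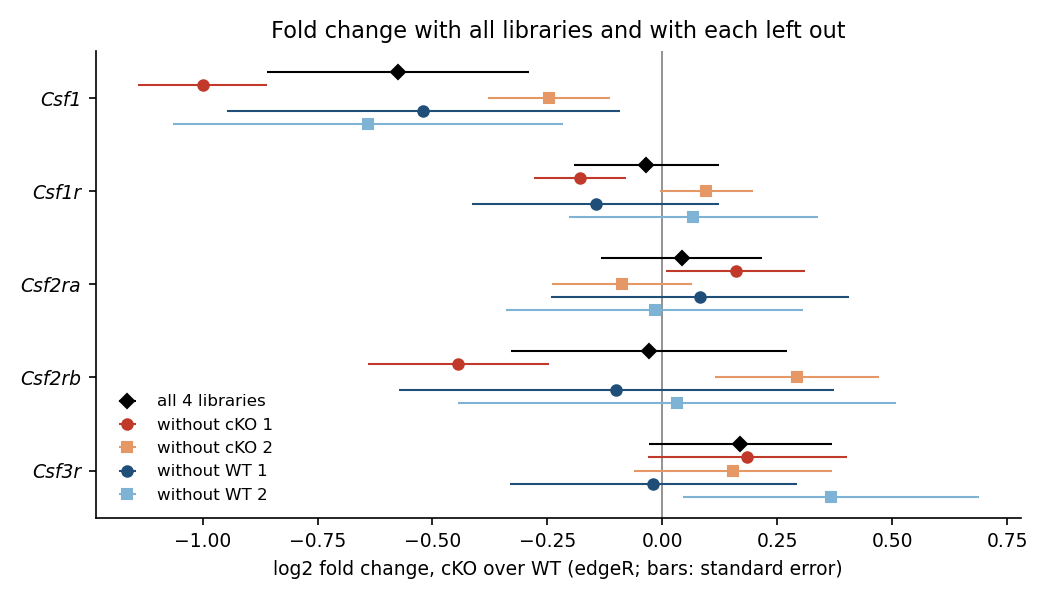
Log2 fold change of cKO over WT for the 5 members from edgeR with all 4 libraries and with each library left out, with standard errors as bars. Csf1 is below 0 in all 5 fits, from -1.0 without cKO 1 to -0.25 without cKO 2, and the other members lie on either side of 0.

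The study itself compared single libraries. In the authors' deposited tables, each of which sets 1 cKO library against 1 WT library, 1 of the 20 entries for members was called, where 41.4% of all entries were. It was Csf1 in cKO 2 against WT 1, with a ratio of 0.497, in an authors' deposited table where 46.8% of genes were called and 28.7% were called lower. The authors' deposited table of cKO 2 against WT 2 called 48.8%, 31.7% as lower, that of cKO 1 against WT 1 called 36.1%, 15.8% as lower, and that of cKO 1 against WT 2 called 34.8%, 17.6% as lower. The authors' deposited table of cKO 2 against WT 2 gave Csf1 a ratio of 0.546 without calling it, and those of cKO 1 against WT 1 and WT 2 gave 0.819 and 0.900. For the uncalled ratio of 0.546 the authors' test, which is not stated, gave an adjusted p of 6.085e-250. A missing call therefore does not mean a large p in these entries. For Csf1r the ratios in the authors' deposited tables ran from 0.861 in cKO 2 against WT 2 to 1.17 in cKO 1 against WT 1. Csf2rb2 and Il3ra were called lower in both of the authors' deposited tables that hold cKO 2, with ratios of 0.351 and 0.353 for Csf2rb2 and 0.157 and 0.191 for Il3ra. The 4 tables share libraries and are not independent of each other.

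CSF1R passes its signal through PI3-kinase, AKT, SRC-family and MAP kinases, and the adaptor TYROBP takes part in macrophages. Of 34 genes of this proximal signalling, 16 were fitted higher and 18 lower, 0 passed edgeR, and the median log2 fold change was -0.021, beside -0.027 over all 13086 genes tested. Pik3ap1, an adaptor of PI3-kinase, was at 339.8 and 333.2 CPM in cKO and 267.5 and 245.2 CPM in WT. Pik3ca, a catalytic subunit of PI3-kinase, was at 18.9 and 21.5 CPM in cKO and 9.44 and 10.8 CPM in WT, and the p38 kinase gene Mapk14 at 81.4 and 115.5 CPM in cKO and 65.8 and 75.8 CPM in WT. For these 3 each cKO value exceeded each WT value, and the log2 fold changes were 0.392, 0.996 and 0.476. The kinase gene Akt2 lay below, at 75.8 and 76.0 CPM in cKO and 101.5 and 94.0 CPM in WT, with a log2 fold change of -0.366. Over the list of 34, 6 genes lay above both WT libraries and 8 below, near the shares of 15.8% and 20.0% over all genes tested. The 4 named genes have the smallest p of the list, as in the lists that follow.

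The GM-CSF and G-CSF receptors signal through JAK kinases and STAT factors. Of 13 such genes 6 were fitted higher and 7 lower, 0 passed edgeR, and the median of the log2 fold changes was -0.277. Of the 13, 1 had an unadjusted edgeR p under 0.05, where 4.65% of all genes tested did. It was Stat3, the main STAT of G-CSF signalling. Stat3 was at 348.2 and 381.5 CPM in cKO and 249.4 and 282.0 CPM in WT, both cKO libraries being high. Its log2 fold change was 0.458 ± 0.167 (SE, edgeR adjusted p = 0.9997). Jak1 was at 254.4 and 109.5 CPM in cKO and 232.7 and 287.0 CPM in WT, cKO 2 alone being low, and Socs3, a feedback inhibitor, at 106.9 and 170.8 CPM in cKO and 85.3 and 130.2 CPM in WT. The median was -0.011 without cKO 2 and 0.041 without WT 1. Of the 13 genes, 2 lay above both WT libraries and 2 below, where 15.8% and 20.0% of all genes tested did.

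Of 21 tested negative regulators of these receptors, 12 were fitted higher and 9 lower, 0 passed edgeR, and the median of the log2 fold changes was 0.044. The adaptor gene Dok1 was at 58.2 and 37.9 CPM in cKO and 74.7 and 83.5 CPM in WT, and Spry1, an inhibitor of RAS signalling, at 13.8 and 4.40 CPM in cKO and 19.5 and 22.1 CPM in WT. Each cKO value of these 2 genes was under each WT value, and the log2 fold changes were -0.719 and -1.19. The phosphatase genes Ptpn1 and Ptprc (CD45) had log2 fold changes of 0.403 and 0.337, each cKO value exceeding each WT value. These 4 were chosen by their p. Of the 21 tested, 5 genes lay above both WT libraries and 3 below, where 15.8% and 20.0% of all genes tested did.

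Among 18 tested transcription regulators of Csf1r, 17 were fitted lower and 1 higher, the median log2 fold change being -0.307 beside -0.027 over all genes tested, and 0 passed edgeR. The median was -0.078 without cKO 2 and -0.564 without cKO 1. Of the 18 tested, 4 genes had each cKO value under each WT value, near the 20.0% of all genes tested, and 0 had the opposite, where 15.8% of all genes did. Runx1 was at 92.8 and 101.6 CPM in cKO and 147.4 and 119.4 CPM in WT, and Tfe3 at 340.5 and 215.9 CPM in cKO and 377.3 and 419.4 CPM in WT, with log2 fold changes of -0.457 and -0.518. Mef2c overlapped between the groups, with 594.5 and 461.7 CPM in cKO and 593.1 and 689.3 CPM in WT. Spi1, chosen here after its values were seen, varied widely within both groups, with 97.3 and 457.6 CPM in cKO and 220.1 and 446.6 CPM in WT, beside 8997 and 7428 CPM of Csf1r in cKO and 7803 and 9026 CPM in WT.

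**Figure D5:**
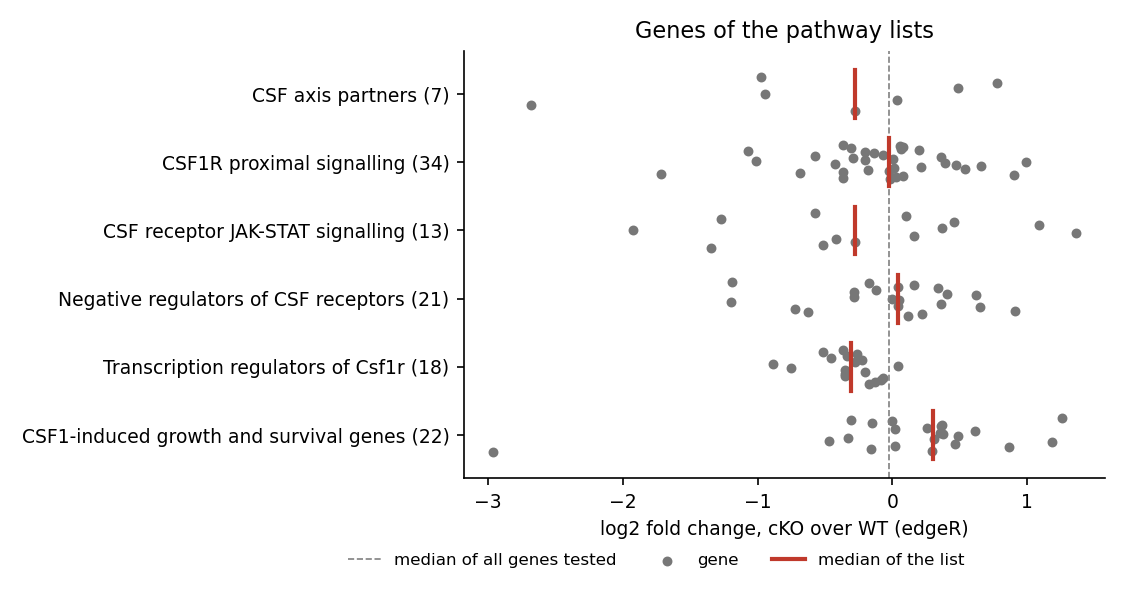
Log2 fold change of cKO over WT for each tested gene of the 6 pathway lists (grey points), the median of each list (red) and that of all genes tested (dashed, -0.027). The genes of Csf1r's transcription regulators lie mostly left of 0, with a median of -0.307. Those of growth and survival lie mostly right, with a median of 0.303.

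The list of growth and survival genes linked to CSF1 in macrophages also holds the cell cycle inhibitor gene Cdkn1b. Of its 22 tested genes, 15 were fitted higher and 7 lower, 0 passed edgeR, and the median of the log2 fold changes was 0.303. Of the 22, 1 had an unadjusted edgeR p under 0.05, where 4.65% of all genes tested did. It was the cyclin gene Ccnd1, a classical CSF1 target. Ccnd1 was at 184.8 and 185.1 CPM in cKO and 139.5 and 128.3 CPM in WT. Its log2 fold change was 0.466 ± 0.177 (SE, edgeR adjusted p = 0.9997). Ccnd2 was at 16.8 and 10.1 CPM in cKO and 5.68 and 6.14 CPM in WT. Cdkn1a, encoding the cell cycle inhibitor p21, was at 132.0 and 123.5 CPM in cKO and 88.1 and 93.7 CPM in WT, and Plau, encoding urokinase, at 24 and 28.1 CPM in cKO and 6.89 and 14.8 CPM in WT. Each cKO value exceeded each WT value for these 4, chosen by their p, and for 7 of the 22 in all, where it did for 15.8% of all genes tested. For 2 of the 22, Cdk4 among them, each cKO value was under each WT value, where it was for 20.0% of all genes tested. The median was 0.157 without cKO 2 and 0.179 and 0.182 without WT 1 and WT 2.

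Genes whose pattern over the 4 libraries was most like a member's were taken by the smallest distance between centred log2 CPM values among 8939 genes averaging 5 CPM or more. Nearest to Csf1r were Inpp5d, encoding the lipid phosphatase SHIP1 of myeloid cells, then Mpi and Rmdn1, at distances of 0.034, 0.040 and 0.042. Inpp5d had 1341 and 1093 CPM in cKO and 1132 and 1308 CPM in WT. Nearest to Csf1 were Nagk, a sugar kinase gene, Tmem104 and Slc25a51, at distances of 0.061, 0.067 and 0.096, and Nagk had 140.4 and 80.4 CPM in cKO and 170.2 and 150.6 CPM in WT. Nearest to Csf2ra were Sft2d1, Higd2a and Eprs, to Csf2rb Itpr2, Rap2c and Arl8b, and to Csf3r Lzic, Srsf2 and Sec22a. Within a distance of 0.1 lay 44 genes for Csf1r, 6 for Csf1, 65 for Csf2ra, 23 for Csf2rb and 25 for Csf3r. With 4 libraries such likeness is a description only.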

How the data were processed

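Per the file headers, the authors deposited 1 table of FPKM values (21044 genes) and 4 pairwise tables, 1 cKO library against 1 WT library each. The pairwise tables hold the deposited read counts per gene, a signal normalized by the authors to the library total with 0 replaced by 0.5, and the authors' fold change, log2 fold change, p-value and adjusted p-value, from a test that is not stated. The aligners Bowtie2 2.2.3 and TopHat2 2.0.12, the counter HTSeq 0.6.0 and the build mm9 come from the submitters' processing notes, but 91.65% of 18431 shared genes had their GENCODE M21 (GRCm38) positions. Strand settings are not stated.

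For 18459 genes the counts were merged into 1 table. Cells absent from the pairwise tables, 4315 of 73836, were recovered from FPKM, 100.0% of them whole within 1e-06 and none above 4. Libraries of a group differed beyond sampling noise (chi-square per degree of freedom of 107.5 in cKO and 27.8 in WT). The test was edgeR 4.0.16 (R 4.3.3) with TMM, filterByExpr and the quasi-likelihood F test, with Benjamini-Hochberg adjustment over 13086 genes. CPM are TMM-scaled, and a standard error is the log2 fold change divided by the root of F. All 5 members passed the filter. Alternatives were DESeq2 1.42.0, other scalings and filters, limma 3.58.1 on log2(FPKM + 1) and log2(FPKM + 0.1), a replicate block, and each library left out. Scripts were tested on simulated counts.

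The members and lists were chosen with earlier results of these data known. Named are the members, Lag3, Cx3cr1, ligands and subunits of the receptors, the 4 genes of each other pathway list with the smallest edgeR p at a mean of 5 CPM or more, and the 3 genes nearest in pattern to each member. Some genes that this rule names are not reported here. Ratios between genes, the promoter motif, the comparison of Csf2rb with Csf2rb2 and the genes Spi1, Kitl, Kit, Flt3, Tgfb1, Hmgxb3, Ddx3y and Xist were added after the data were examined.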

Additional observations from a re-analysis of the deposited data

How the results depend on the processing

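The cause of these shifts was not tested. DESeq2 called 39 genes, where edgeR called 0, and leaving out each library gave 0 to 748, with 0 to 1 members called and 2 to 5 members not overlapping, in groups of which 1 then holds a single library. A single library lies outside the range of 2 others more readily than 2 libraries do. The share of 35.9% of genes tested that did not overlap holds for all 4 libraries. No such share was computed with a library left out, so whether 2 to 5 members is unusual was not tested. Over leaving out each library the log2 fold change ran from -0.18 to 0.096 for Csf1r, -1.0 to -0.247 for Csf1, -0.087 to 0.16 for Csf2ra, -0.444 to 0.293 for Csf2rb and -0.02 to 0.367 for Csf3r. Csf1r had 0.004 with limma on log2(FPKM + 1) and 0.004 on log2(FPKM + 0.1). Csf1 kept its direction under all 12 alternatives. With each library left out, the list medians ran from -1.56 to -0.275 for partners of the axis and -0.128 to 0.0069 for proximal signalling. They ran from -0.327 to 0.041 for JAK-STAT signalling and -0.078 to 0.091 for negative regulators. For transcription regulators they ran from -0.564 to -0.078. For growth and survival genes they ran from 0.157 to 0.301, beside 0.303 with no library left out. The labels do not say that a replicate number marks a shared origin, and deviations of libraries with 1 number had a correlation of -0.014. Under the replicate block 0 genes were called, the log2 fold change of Csf1 was -0.622, and the median for partners of the axis was -1.15; among members no call changed. The members' counts are high, and the 2 libraries a group limit these comparisons.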

Other observations

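Of the other genes listed as partners of the axis, Kitl, the ligand of the KIT receptor, had 0 and 245 counts in cKO and 38 and 135 in WT, and Kit itself had 57 counts in cKO 2 and 0 in the other 3 libraries. Ptprz1, a receptor of IL-34 on neural cells, had 509 and 144 counts in cKO and 137 and 213 in WT, and its log2 fold change was 0.778 ± 0.729 (SE, edgeR adjusted p = 0.9997). Sdc1, which binds IL-34, had 21 counts in WT 2 and 0 in the other libraries. Flt3 had 6 and 0 counts in cKO and 27 and 10 in WT, and Tgfb1 had 92 and 20 counts in cKO and 151 and 55 in WT.

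Border-associated macrophages also depend on CSF1R. Their 10 markers, Mrc1 and Pf4 among them, summed to 522.2 and 538.0 CPM in cKO and 504.7 and 536.3 CPM in WT. Mrc1 alone was at 409.7 and 462.6 CPM in cKO and 406.2 and 472.1 CPM in WT, most of these sums. Of the 10, 7 were fitted higher and 3 lower, and 0 passed edgeR. Among them 2 lay above both WT libraries and 0 below, where 15.8% and 20.0% of all genes tested did. Lymphoid markers, 4 of 12 with counts, summed to 2.74 and 7.40 CPM in cKO and 1.98 and 0.887 CPM in WT.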
